A study of Macaca fascicularis with 21 samples.

Results

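At the labelled developmental stage of day 16, 2 populations of cells were compared within the same cultured cynomolgus monkey (Macaca fascicularis) embryos. They are the cells that the authors annotated L-Gast2 and the cells that they annotated EXMC. All cells of day 16 with either annotation were taken, which gave 119 of the 336 cells of that day and of the 1453 cells of the series. They comprise 33 L-Gast2 cells (7, 5, 12 and 9 in embryos 1 to 4) and 86 EXMC cells (22, 24, 20 and 20). All 4 embryos had been put in culture as blastocysts, with no transgene or drug named in the labels: they were freed of the zona pellucida, grown singly on a Matrigel coat in medium with rising serum, and labelled by developmental stage. Most extra-embryonic cells were dissected away before single cells were picked by hand, so the EXMC cells are those left after that step. L-Gast2 made up 7.95%, 5.81%, 14.1% and 11.7% of the picked cells of embryos 1 to 4, and EXMC 25%, 27.9%, 23.5% and 26%.

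Gastrulation forms mesoderm when epiblast cells leave the epithelium at the primitive streak, where BMP, WNT and NODAL signals induce transcription factors such as TBXT, EOMES and MESP1. The lateral part of this mesoderm expresses HAND1 and gives rise to heart, body wall and vessel precursors. In primates a mesenchyme rich in collagen already lines the amnion, yolk sac and chorionic cavity before the streak appears; it also expresses HAND1, and its origin is debated.

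Counts were summed over the cells of each type in each embryo, and L-Gast2 was compared with EXMC of the same embryo. The 4 L-Gast2 sums held 529321, 515003, 1915446 and 780629 counts, and the 4 EXMC sums held 2004669, 1786642, 2356366 and 1410354. Median counts per cell were 72269 in L-Gast2 and 65195 in EXMC. The deepest cell alone supplied 50.9%, 66.1%, 22.4% and 37.1% of the L-Gast2 sums, against 15%, 14.7%, 19% and 21.4% of the EXMC sums. L-Gast2 sums therefore rest on few cells, most of all in embryo 2. Levels are given as CPM (counts scaled to a library of 1000000) of the summed cells in embryos 1 to 4, in that order, and the log2 fold change (L-Gast2 over EXMC, ± its standard error) comes from an edgeR quasi-likelihood fit with the embryo as a block. Calls are at an adjusted p (Benjamini-Hochberg, over all genes tested) under 0.05. As the authors annotated the cells from these same RNA data, a difference between the 2 types describes them and is no independent evidence for their identity.

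Known markers of mesoderm and of collagen-rich mesenchyme were examined first. HAND1, a transcription factor of lateral plate and extraembryonic mesoderm, stood at 817, 513, 726 and 399 CPM in L-Gast2, against 126, 89.7, 48.8 and 103 CPM in EXMC. The ranges did not overlap, and HAND1 was called higher in L-Gast2 (log2 fold change 2.76 ± 0.31, 4 of 4 embryos, adjusted p = 0.000393). It was not particular to mesoderm at this day, since cells annotated L-AM2 averaged 667 CPM, against 9.93 CPM in postL-EPI and 22.5 CPM in L-Gast1.

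MESP1, a factor of nascent mesoderm, was found at 105, 11.4, 0 and 193 CPM in L-Gast2 and at 1.07, 0.55, 0 and 3.23 CPM in EXMC. It reached the level asked for by the filter of the fit in too few of the sums and was not tested. With no filter it was called higher (log2 fold change 5.52, adjusted p = 4.52e-05), but 56.1% of its 180 L-Gast2 counts came from 1 cell of embryo 4 and embryo 3 had none.

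COL6A1, which encodes a chain of the microfibrillar collagen VI, ran the other way, with 58.3, 316, 183 and 380 CPM in L-Gast2 and 1773, 1081, 1303 and 2702 CPM in EXMC. Every L-Gast2 sum lay below every EXMC sum. The log2 fold change of -3.02 ± 0.57 was nevertheless not called (adjusted p = 0.0918). In embryo 2 the deepest L-Gast2 cell held COL6A1 at 473 CPM, against 28.6 CPM over the other 4 cells. A fit without that cell did not call COL6A1 either. Across the alternative fits COL6A1 was called in 7 of 16, among them the fit without embryo 1, DESeq2 and the fit on means over cells.

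Of 15 streak and early mesoderm factors, 5 passed the filter. All 5 had a log2 fold change above 0 (median 1.59), and CDX2 alone was called higher in L-Gast2; DESeq2 called 2 higher and limma on means over cells 3. The summed factors ran from 197 to 630 CPM in L-Gast2 and from 44.6 to 225 CPM in EXMC. TBXT, the streak factor brachyury, stood at 2.01, 0, 0.53 and 106 CPM in L-Gast2 and at 9.09, 11.6, 1.26 and 4.85 CPM in EXMC, and 87% of its 69 L-Gast2 counts came from a single cell of embryo 4. EOMES, a T-box factor of the streak, stood at 68.4, 17.1, 0 and 34.7 CPM in L-Gast2, against 17.6, 21.5, 12.6 and 5.65 CPM in EXMC (log2 fold change 0.33 ± 1.38, adjusted p = 0.956), and its direction turned without embryo 1 (-0.55) or embryo 4 (-0.65). In the neighbouring type L-Gast1 it averaged 157 CPM. MIXL1 reached at most 17.4 CPM in L-Gast2 and 3.74 CPM in EXMC, TBX6 at most 1.58 and 3.36 CPM, and SNAI2 had 0 counts in L-Gast2 and 3 in EXMC. TBXT, MIXL1, TBX6 and SNAI2 did not pass the filter and were not tested. The 2 populations are therefore called here by their annotations, L-Gast2 and EXMC. Of the 33 L-Gast2 cells, MESP1 was found in 7, EOMES in 6, TBXT in 4, MIXL1 in 3 and TBX6 in 1, whereas FOXH1, another listed factor, was found in 20.

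The comparison tested 9922 genes and called 275 of them (2.77%). In L-Gast2, 92 genes were called higher (0.927%) and 183 lower (1.84%). The median log2 fold change was 1.34 among the genes called higher and -3.38 among those called lower, and -0.15 over all genes tested. In 274 of the 275 the direction was the same in all 4 embryos, and in 219 the 4 L-Gast2 sums lay entirely above or below the 4 EXMC sums. Over all genes tested the 2 types were apart in this way in 929 (9.36%). Without embryo 1, 113 genes were called, and without embryo 3, 145; 68 of the 275 genes, 17 higher and 51 lower, were called whichever embryo was left out. The split between directions differed with the method. Limma on means over cells of log2(CPM + 1) called 758 genes higher and 466 lower (61.9% higher, against 33.5% in the summed counts). Its median log2 difference was 0.22 over all genes. That fit gives each cell the same weight, but it also takes logs per cell and uses another scaling and test. Which of these changes shifted the split was not tested. Without the embryo as a block, 39 genes were called higher and 162 lower.

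**Figure D1:**
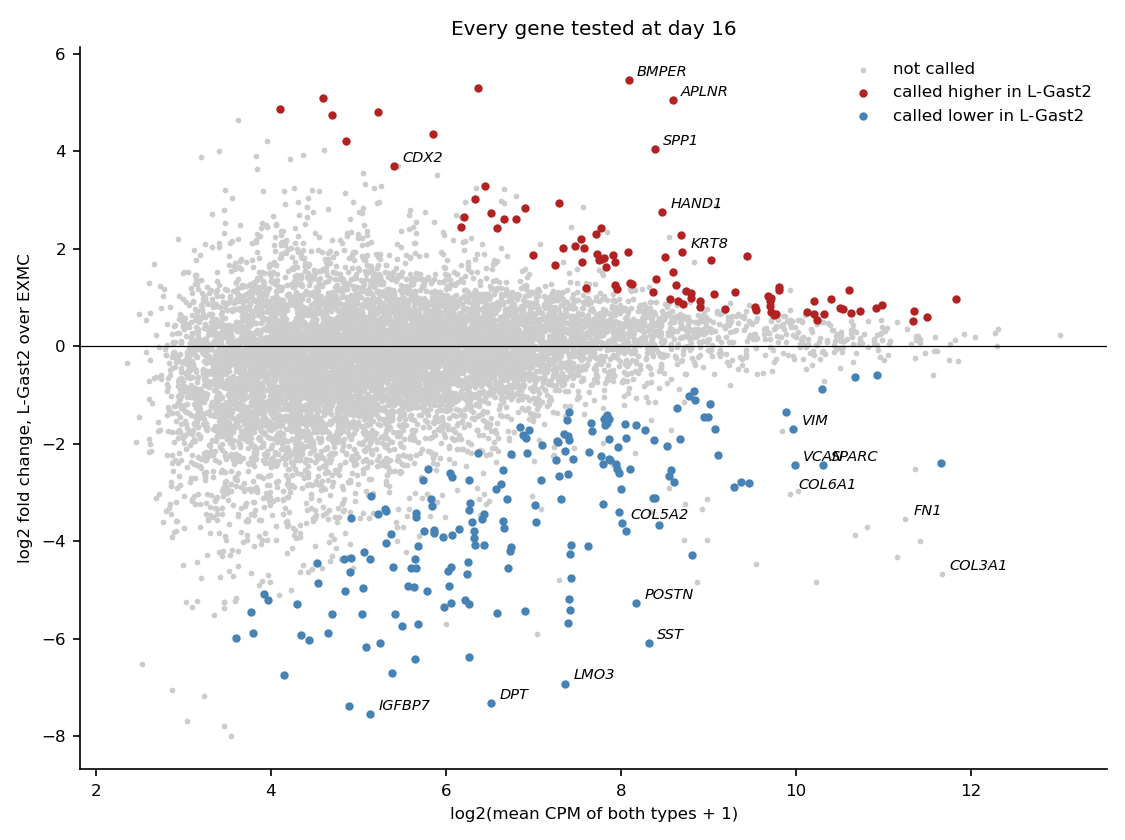
Each point is 1 of the 9922 genes tested, with log2 of the mean CPM of both types plus 1 on the x axis and the log2 fold change of L-Gast2 over EXMC on the y axis. The 92 genes called higher in L-Gast2 are red, the 183 called lower are blue, and BMPER and APLNR lie at the upper edge at high levels; COL3A1, FN1 and COL6A1 lie far below 0 without being called.

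Among the largest differences in favour of L-Gast2 were a secreted BMP-binding protein and a peptide receptor. BMPER, which binds BMPs outside the cell and tunes their signal, stood at 805, 645, 329 and 338 CPM in L-Gast2, against 8.02, 26.4, 3.78 and 15.3 CPM in EXMC. Its log2 fold change was 5.47 ± 0.44 (adjusted p = 4.91e-05), and it was called in all 16 alternatives. APLNR, the receptor of apelin and ELABELA, stood at 1094, 871, 333 and 657 CPM in L-Gast2, against 22.5, 72.1, 3.78 and 22.6 CPM in EXMC (log2 fold change 5.05 ± 0.43, adjusted p = 0.000143); the fit over all types of the day did not call it (0.0942). For both genes the L-Gast2 and EXMC sums lay far apart in every embryo. Neither was high elsewhere at day 16: BMPER averaged 11.6 CPM in L-Gast1, 4.38 CPM in postL-EPI and at most 39.9 CPM in any other annotated type, and APLNR 17.2 CPM, 3.4 CPM and at most 50.3 CPM. These levels in the other types were not tested.

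**Figure D2:**
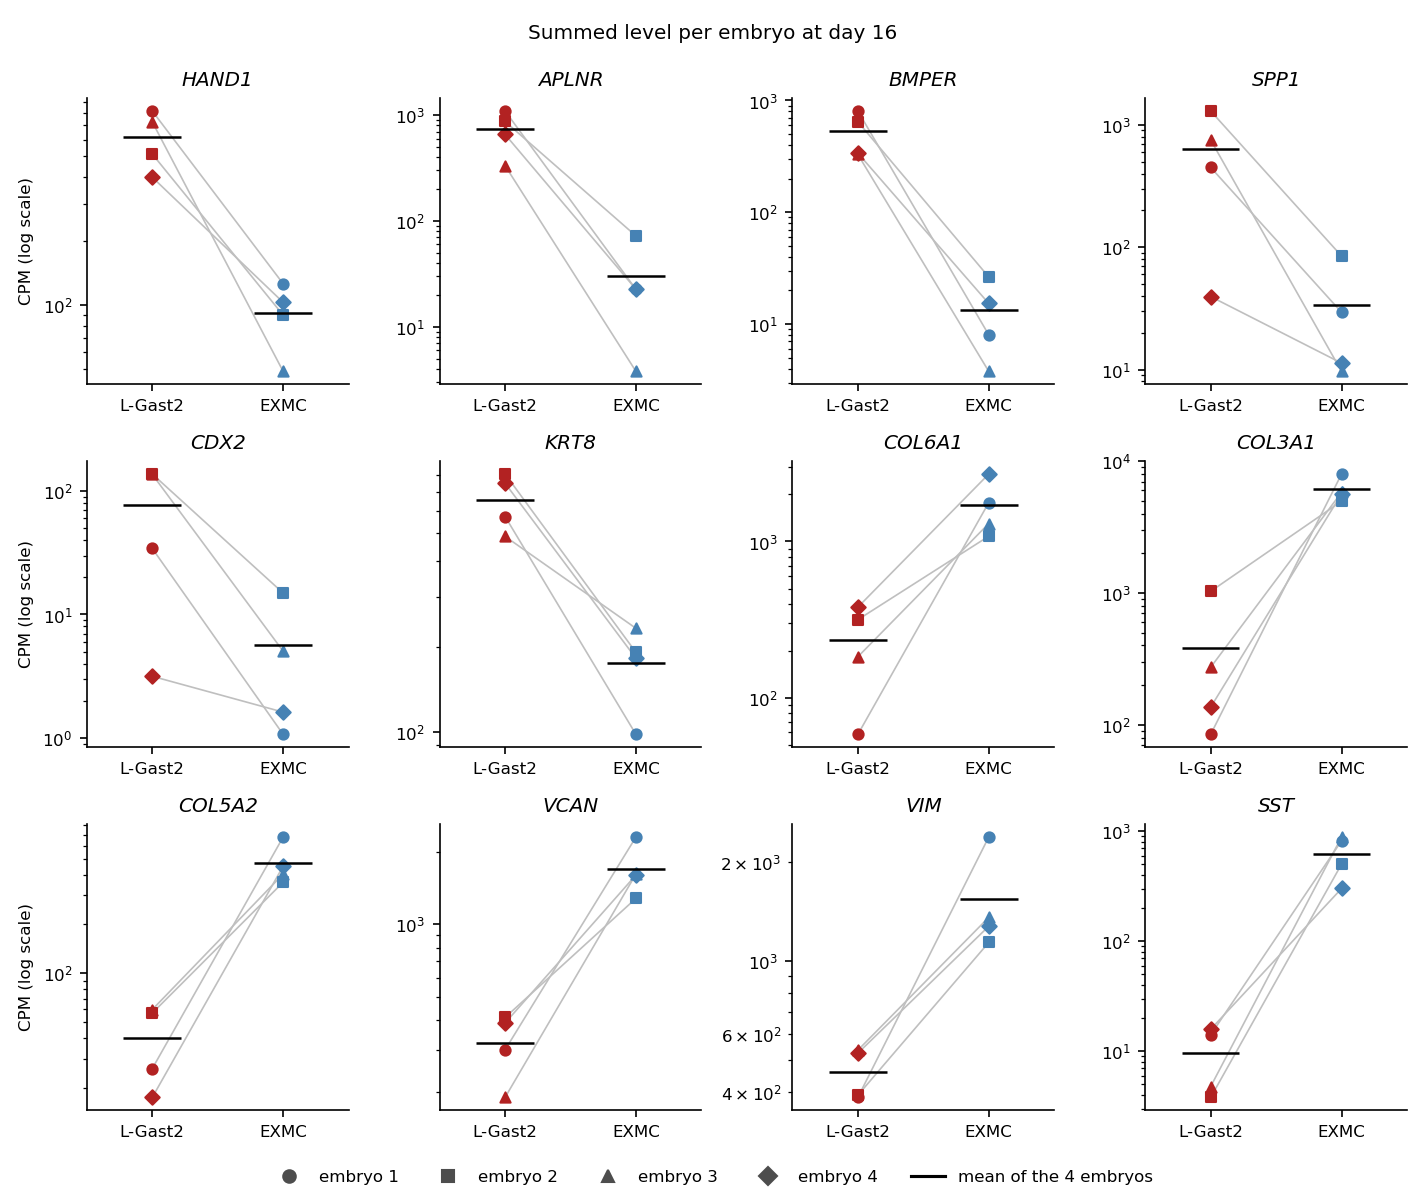
Summed CPM of 12 genes (log scale) in the 4 embryos of day 16, L-Gast2 at the left and EXMC at the right of each panel, with grey lines joining the 2 types of an embryo and black bars for the means. HAND1, APLNR, BMPER and KRT8 are higher in L-Gast2 in each embryo without overlap, SPP1 and CDX2 are low in embryo 4, and COL6A1, COL3A1, COL5A2, VCAN, VIM and SST are lower in L-Gast2 without overlap.

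The other 10 of the 12 largest differences in favour of L-Gast2 included secreted, homeobox and enzyme genes. SPP1, the secreted matrix phosphoprotein osteopontin, stood at 449, 1297, 752 and 39.5 CPM in L-Gast2 and at 29.4, 84.7, 9.67 and 11.3 CPM in EXMC (log2 fold change 4.05 ± 0.70, adjusted p = 0.0364). CDX2, a homeobox factor of the posterior embryo, trophoblast and amnion, stood at 34.2, 137, 136 and 3.16 CPM in L-Gast2 and at 1.07, 14.9, 5.04 and 1.62 CPM in EXMC (log2 fold change 3.70 ± 0.83, adjusted p = 0.0292). Both were low in the L-Gast2 cells of embryo 4, where they overlapped the EXMC range. HOXB6, a homeobox gene of the middle of the HOXB cluster, stood at 76.4, 266, 55.1 and 20.5 CPM in L-Gast2, against 0.535, 29.2, 0 and 6.46 CPM in EXMC (log2 fold change 4.35 ± 1.02, adjusted p = 0.0392). TRPV2, a cation channel, averaged 157 ± 124 CPM in L-Gast2 and 15.3 ± 11.1 CPM in EXMC (SD, n = 4 each; adjusted p = 0.00399).

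The other 6 were each found in 4 to 17 of the 33 L-Gast2 cells. ALAS2, the erythroid enzyme that starts haem synthesis, stood at 4.02, 546, 66.3 and 25.3 CPM in L-Gast2, against 0, 8.25, 0 and 4.85 CPM in EXMC (log2 fold change 5.31 ± 0.97, adjusted p = 0.0094). It was found in 11 of 33 L-Gast2 cells, and 1 cell of embryo 2 held 58.1% of the counts. HLX, a homeobox factor of gut and limb mesenchyme in mice, averaged 52.6 ± 36.4 CPM in L-Gast2 and 3.24 ± 2.67 CPM in EXMC (SD, n = 4 each). EPB41L4A averaged 45.2 and 1.34 CPM, CD52, a surface glycoprotein of leukocytes, 67.5 and 5.19 CPM, TUBGCP3, a component of the gamma-tubulin complex, 46.8 and 2.95 CPM, and UGT1A9, a glucuronosyltransferase, 31.6 and 0.716 CPM, each with L-Gast2 given before EXMC. UGT1A9 shares its 3′ exons with its sister genes in other primates, so its counts cannot be assigned to it alone.

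Most of these calls needed all 4 embryos. Without embryo 1 the adjusted p was 0.178 for CD52, 0.147 for CDX2, 0.0558 for EPB41L4A, 0.0611 for HLX, 0.209 for HOXB6, 0.159 for SPP1 and 0.23 for UGT1A9. Without embryo 2 it was 0.124 for EPB41L4A, 0.181 for HLX, 0.136 for HOXB6, 0.0582 for SPP1, 0.0559 for TRPV2, 0.148 for TUBGCP3 and 0.0698 for UGT1A9. Without embryo 3 it was 0.0588 for CD52, 0.233 for CDX2, 0.184 for EPB41L4A, 0.0999 for HLX, 0.0949 for HOXB6 and TUBGCP3 and 0.076 for UGT1A9, and without embryo 4 it was 0.0542 for EPB41L4A, 0.0707 for HLX, 0.151 for TUBGCP3 and 0.14 for UGT1A9. ALAS2 was tested in 12 of the 16 alternatives, which did not include every fit with 1 embryo left out. It kept its call in 11 of the 12 and lost it without the block (0.202).

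Among the genes lowest in L-Gast2 relative to EXMC, a peptide hormone had the highest level. SST, the precursor of somatostatin, stood at 14.1, 3.8, 4.77 and 15.8 CPM in L-Gast2, against 818, 501, 884 and 301 CPM in EXMC (log2 fold change -6.10 ± 0.52, adjusted p = 0.000143), and was called in all 16 alternatives. Among the other annotated types of day 16 the highest average was 24 CPM, in E-PGC. DPT, the matrix protein dermatopontin, stood at 0, 1.9, 0 and 3.16 CPM in L-Gast2 and at 141, 325, 147 and 107 CPM in EXMC; with 3 counts in all L-Gast2 sums, the ratio of counts put it 220-fold lower there (95% exact counting interval 75.3 to 1070). LMO3, a LIM-domain cofactor, stood at 0, 15.2, 0 and 1.58 CPM in L-Gast2 and at 503, 264, 295 and 225 CPM in EXMC (log2 fold change -6.92 ± 1.05, adjusted p = 0.0169). PLAC1, an X-linked gene known from placenta, averaged 1.3 ± 1.57 CPM in L-Gast2 and 151 ± 103 CPM in EXMC (adjusted p = 0.000733).

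Several others were all but missing from L-Gast2. IGFBP7, a secreted binding protein of insulin-like growth factors, had 1 count in the 33 L-Gast2 cells and 443 in the 86 EXMC cells, a 219-fold lower ratio (39.1 to 8679). C7, a complement component, had 1 and 421 counts (208-fold lower, 37.2 to 8249), IFI16, a sensor of nucleic acids, 2 and 540 (134-fold, 36.8 to 1106), MRVI1, a target of cGMP-dependent kinase, 1 and 240 (119-fold, 21.1 to 4711), CXXC4, an inhibitor of WNT signalling, 2 and 284 (70.3-fold, 19.3 to 583), and EBF1, a transcription factor of mesenchyme and B cells, 3 and 452 (74.6-fold, 25.4 to 363), in L-Gast2 and EXMC in that order. The endoplasmic reticulum protein ERP27 and the cyclic AMP phosphodiesterase PDE7B each had 5 counts in L-Gast2, against 556 and 757 in EXMC. The 12 genes were picked among those called and lower in every embryo, so their calls (adjusted p 0.000143 to 0.0196) follow from that choice. In none of them did an L-Gast2 sum reach an EXMC sum. Genes with so few counts in L-Gast2 could pass the filter only through EXMC, so they had to differ. The intervals of the count ratios cover counting error only. Calls were lost for ERP27 without embryo 1 (adjusted p = 0.0587), for MRVI1 without embryo 1 (0.0859) or 3 (0.0826), for CXXC4 without embryo 1 (0.0859), 2 (0.0509) or 3 (0.0863), and for LMO3 without embryo 4 (0.209).

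Of the 27 gene lists used below, 494 of 507 genes were in the table and 306 passed the filter; counts per list are given over the genes that passed, and a gene that passed only through the type in which it is high had to differ. A median describes those genes and stands beside -0.15 over all genes tested.

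Mesodermal transcription factors were not uniformly in favour of either type. Of 21 lateral plate and extraembryonic mesoderm factors tested, HAND1 was called higher and TBX2 lower in L-Gast2 (median log2 fold change -0.97). TBX2, a T-box repressor, stood at 0, 0, 7.42 and 1.58 CPM in L-Gast2 and at 29.9, 19.3, 37.4 and 136 CPM in EXMC (log2 fold change -4.63 ± 1.08, adjusted p = 0.0363; 0.15, 0.092 and 0.165 without embryos 1, 2 and 4). Of 2 paraxial and intermediate mesoderm factors tested, OSR1, a zinc-finger factor of intermediate mesoderm, was called lower, with 0, 13.3, 2.65 and 0 CPM in L-Gast2 and 33.2, 61.6, 54.6 and 55.7 CPM in EXMC (adjusted p = 0.0399). Without embryos 1 to 4 in turn its adjusted p was 0.157, 0.0559, 0.141 and 0.0655.

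In 9 of the 21 lateral plate and extraembryonic factors the types did not overlap, against 9.36% of all genes tested, and 5 had an unadjusted p under 0.05 in the higher and 6 in the lower direction. Further factors, chosen after their values were seen, are given here. GATA6, a zinc-finger factor of endoderm and heart mesoderm, stood at 125, 139, 129 and 122 CPM in L-Gast2 and at 67.9, 68.2, 50.9 and 94.5 CPM in EXMC (log2 fold change 0.90 ± 0.42, adjusted p = 0.331). GATA4 averaged 47.8 ± 4.09 CPM in L-Gast2 and 97.3 ± 48.5 CPM in EXMC (SD, n = 4 each; adjusted p = 0.506), and the ranges overlapped. The homeobox targets of BMP signalling MSX1 and MSX2 averaged 18 ± 1.4 and 43.5 ± 17.4 CPM in L-Gast2, against 1.16 ± 0.954 and 3.25 ± 3.01 CPM in EXMC; neither overlapped, and neither was called (adjusted p = 0.0995 and 0.0672). HAND2, the relative of HAND1, averaged 59.2 ± 30.4 CPM in L-Gast2 and 138 ± 98.2 CPM in EXMC (adjusted p = 0.23). TBX20, a heart T-box factor, averaged 59.9 ± 47.5 CPM in L-Gast2 and 135 ± 64.4 CPM in EXMC (adjusted p = 0.35).

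In the BMP pathway, 2 of 21 genes tested were called higher in L-Gast2 and 1 lower (median log2 fold change 0.26). Beside BMPER, the activin and BMP antagonist follistatin, FST, stood at 219, 392, 333 and 384 CPM in L-Gast2 and at 112, 121, 65.6 and 65.4 CPM in EXMC (log2 fold change 1.89 ± 0.34, adjusted p = 0.00719; 0.0623 without embryo 3). The ligand BMP5 ran the other way, at 56.3, 98.9, 157 and 15.8 CPM in L-Gast2 and at 502, 291, 328 and 314 CPM in EXMC (log2 fold change -2.42 ± 0.49, adjusted p = 0.0198; 0.152 without embryo 1). BMP4, the ligand that induces posterior mesoderm, stood at 756, 628, 252 and 96.3 CPM in L-Gast2 and at 303, 136, 173 and 63 CPM in EXMC; it was higher in L-Gast2 within each embryo but was not called (log2 fold change 1.17 ± 0.31, adjusted p = 0.0614). ID2, a direct target of BMP signalling, averaged 388 ± 111 CPM in L-Gast2 and 168 ± 83.6 CPM in EXMC (adjusted p = 0.0538). In 6 of the 21 genes the 2 types did not overlap, against 9.36% of all genes tested.

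For NODAL, 1 of 13 genes tested was called in each direction (median -1.10). CFC1, the EGF-CFC co-receptor of NODAL, stood at 380, 226, 47.2 and 55.3 CPM in L-Gast2 and at 16, 53.4, 10.5 and 16.2 CPM in EXMC (log2 fold change 2.60 ± 0.55, adjusted p = 0.0203). GDF3, a NODAL-related ligand of pluripotent cells, stood at 2.01, 1.9, 10.6 and 18.9 CPM in L-Gast2 and at 43.3, 56.1, 97.9 and 225 CPM in EXMC (log2 fold change -3.78 ± 0.63, adjusted p = 0.0048). It averaged 225 CPM in L-Gast1, and with L-Gast1 and L-Gast2 summed together its log2 fold change was -0.53 (adjusted p = 0.734). FOXH1, the nuclear partner of NODAL-activated SMADs, averaged 130 ± 96.4 CPM in L-Gast2 and 29.6 ± 10.1 CPM in EXMC (adjusted p = 0.0964). CFC1 was not called without embryo 1 (0.178) or 2 (0.0724).

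Among 20 WNT pathway genes (median -0.33), 0 were called higher by edgeR, with 2 at an unadjusted p under 0.05 and 2 called by DESeq2; the ligand WNT2 was called lower, at 0, 17.1, 0 and 3.16 CPM in L-Gast2 and at 110, 124, 85.3 and 32.3 CPM in EXMC (log2 fold change -4.93 ± 1.06, adjusted p = 0.0221; 0.155 without embryo 1 and 0.0777 without embryo 3). LGR4, a receptor of R-spondins, averaged 249 ± 84.3 CPM in L-Gast2 and 90 ± 41.8 CPM in EXMC (adjusted p = 0.0676). The FGF (11 tested), retinoic acid (8) and NOTCH (6) lists held 0 called genes in edgeR; 2, 3 and 2 of their genes had an unadjusted p under 0.05, and DESeq2 called 1, 1 and 2. RARB, a retinoic acid receptor, averaged 30.7 ± 33.4 CPM in L-Gast2 and 139 ± 46.5 CPM in EXMC (adjusted p = 0.0907), and NOTCH2 47.5 ± 24.7 and 127 ± 6.27 CPM (adjusted p = 0.118).

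Of 22 genes of the PDGF, VEGF, HGF, KIT and IGF axes, NRP2 was called higher and IGFBP7 lower in L-Gast2 (median -1.0). NRP2, a co-receptor of VEGF and semaphorins, stood at 348, 314, 238 and 851 CPM in L-Gast2 and at 111, 96.8, 108 and 85.6 CPM in EXMC (log2 fold change 1.93 ± 0.35, adjusted p = 0.00833; 0.0611 without embryo 1). HGF, the secreted ligand of MET, stood at 135, 772, 806 and 272 CPM in L-Gast2 and at 1402, 1042, 1416 and 1503 CPM in EXMC, with no overlap and no call (adjusted p = 0.331). IGF2, an imprinted growth factor, averaged 310 ± 278 CPM in L-Gast2 and 1770 ± 1035 CPM in EXMC (adjusted p = 0.296). PDGFRA, a receptor of mesenchyme, averaged 23.5 ± 13.4 CPM in L-Gast2 and 72.7 ± 24.7 CPM in EXMC (adjusted p = 0.214).

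Of 17 collagen genes tested, 0 were called higher and 4 lower in L-Gast2 (median log2 fold change -2.88), and in 12 the types did not overlap, against 9.36% of all genes tested; DESeq2 called 1 higher and 12 lower, and 1 had an unadjusted p under 0.05 in the higher direction. COL5A2, a fibrillar collagen chain, stood at 26.1, 57, 59.9 and 17.4 CPM in L-Gast2 and at 680, 360, 404 and 451 CPM in EXMC (log2 fold change -3.63 ± 0.41, adjusted p = 0.000393). The basement membrane chains COL4A1 and COL4A2 averaged 194 ± 59.1 and 148 ± 78 CPM in L-Gast2, against 913 ± 300 and 588 ± 249 CPM in EXMC (adjusted p = 0.00228 and 0.00869). COL6A2, the partner of COL6A1, averaged 157 ± 95.6 CPM in L-Gast2 and 1091 ± 607 CPM in EXMC (log2 fold change -2.88 ± 0.46, adjusted p = 0.0233). With 1 embryo left out, 2 to 6 collagens were called lower: COL4A2 was lost without embryo 1 (0.0846), 3 (0.0527) or 4 (0.0588), and COL6A2 without embryo 3 (0.0588) or 4 (0.159).

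The abundant fibrillar collagens lay far apart in the 2 types and were not called. COL3A1, the chain of collagen III, stood at 84.5, 1029, 273 and 136 CPM in L-Gast2, against 7990, 4972, 5802 and 5652 CPM in EXMC (log2 fold change -4.67 ± 1.02, adjusted p = 0.192). COL1A1 stood at 26.1, 1046, 187 and 216 CPM in L-Gast2, against 4903, 3701, 3045 and 5041 CPM in EXMC (adjusted p = 0.285), and COL1A2 averaged 314 ± 238 CPM, against 3264 ± 702 CPM (adjusted p = 0.159). Embryo 2 was the highest of the L-Gast2 sums for each of these chains. There, 1 cell that supplied 66.1% of the counts had COL3A1 at 1561 CPM and COL1A1 at 1608 CPM, against 57.2 and 17.2 CPM over the other 4 cells; the same cell had HAND1 at 529 CPM and BMPER at 732 CPM, against 515 CPM for each over the others. Without that cell, a fit added after seeing the data called 7 collagens lower, COL3A1 among them, and 279 genes lower in all. COL1A1, COL1A2 and COL6A1 were not called in that fit. Why this cell differed from the others was not tested.

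In the list of other matrix genes, 2 of 26 were called higher and 8 lower (median -2.07). The types did not overlap in 15 of the 26, against 9.36% of all genes tested. VCAN, the large proteoglycan versican, stood at 300, 409, 190 and 388 CPM in L-Gast2 and at 2311, 1283, 1620 and 1605 CPM in EXMC (log2 fold change -2.44 ± 0.24, adjusted p = 0.000144). SPARC, a collagen-binding glycoprotein, averaged 444 ± 265 CPM in L-Gast2 and 2087 ± 468 CPM in EXMC (adjusted p = 0.00298). POSTN, periostin, averaged 25.1 ± 28.3 CPM in L-Gast2 and 552 ± 384 CPM in EXMC (log2 fold change -5.27 ± 0.83, adjusted p = 0.032). FBLN1, fibulin, and LAMB1, a laminin chain, were lower by 2.42 and 1.73 on the log2 scale (adjusted p = 0.00828 and 0.012). The basement membrane linkers NID1 and NID2 and the protease inhibitor TIMP3 were also called (adjusted p = 0.0195, 0.0399 and 0.0326).

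Fibronectin, FN1, at 229, 167, 640 and 688 CPM in L-Gast2 and 6040, 3110, 4590 and 3912 CPM in EXMC, was not called (log2 fold change -3.56 ± 0.53, adjusted p = 0.0753). The small proteoglycans LUM and DCN averaged 347 ± 465 and 92 ± 85.9 CPM in L-Gast2, against 2926 ± 1551 and 2309 ± 1000 CPM in EXMC (adjusted p = 0.131 and 0.11). The pair of matrix genes higher in L-Gast2 was SPP1, given above, and HAS2, the hyaluronan synthase, at 1362, 1748, 578 and 1313 CPM in L-Gast2 and 385, 494, 493 and 789 CPM in EXMC (log2 fold change 1.15 ± 0.26, adjusted p = 0.0386). HAS2 also averaged 685 CPM in L-Gast1. Its call was lost without embryo 1 (0.215), 2 (0.134) or 4 (0.067), and without the deepest cell of embryo 2 neither SPP1 nor HAS2 was called (0.0554 and 0.0602). Without embryo 1 the calls of LAMB1 (0.0712), NID1 (0.0736), NID2 (0.0827) and TIMP3 (0.152) were lost, without embryo 2 those of POSTN (0.0503), NID2 (0.148) and TIMP3 (0.0719), without embryo 3 those of NID1 (0.106) and TIMP3 (0.0747), and without embryo 4 that of TIMP3 (0.104).

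**Figure D3:**
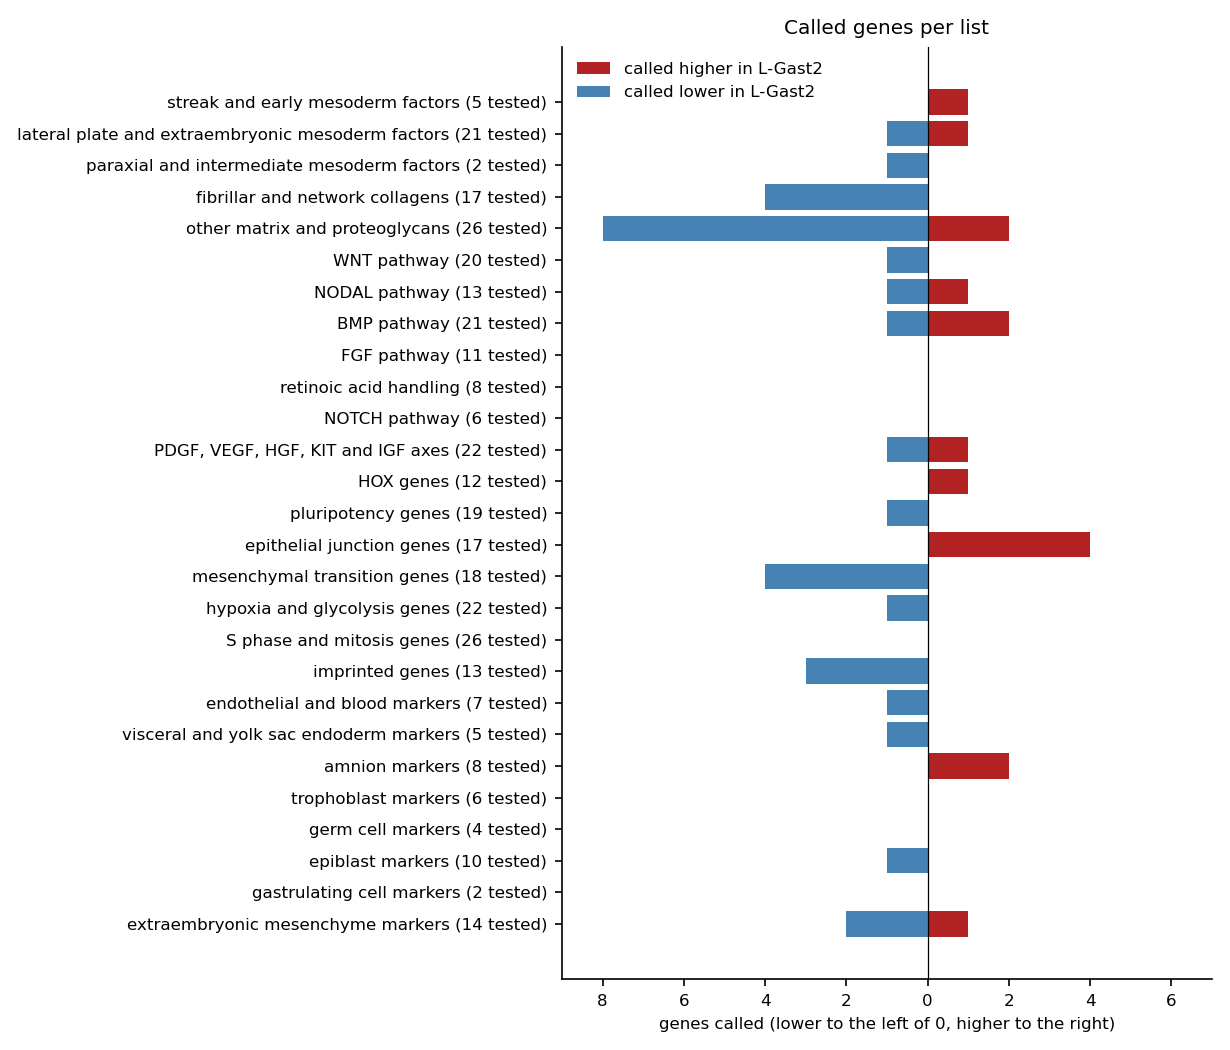
Bars give the number of genes called per list, lower in L-Gast2 to the left of 0 (blue) and higher to the right (red), with the number tested in brackets. Other matrix genes have the longest bar to the left (8 genes), followed by collagens and mesenchymal transition genes (4 each), and epithelial junction genes the longest to the right (4 genes).

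Keratins set the 2 populations apart in the opposite direction. Of 17 epithelial junction and keratin genes tested, 4 were called higher and 0 lower in L-Gast2 (median log2 fold change 1.02; 1 gene in the lower direction had an unadjusted p under 0.05, and DESeq2 called 5 higher and 0 lower). KRT8 stood at 573, 808, 488 and 750 CPM in L-Gast2, against 98.4, 191, 232 and 182 CPM in EXMC (log2 fold change 1.93 ± 0.26, adjusted p = 0.00138). Its filament partner KRT18 stood at 386, 713, 766 and 399 CPM in L-Gast2, against 106, 107, 219 and 206 CPM in EXMC (adjusted p = 0.00333). KRT19 averaged 1258 ± 287 CPM in L-Gast2 and 537 ± 99.7 CPM in EXMC (log2 fold change 1.21 ± 0.18, adjusted p = 0.00296). All 3 keratins were separated in every embryo and kept their calls whichever embryo was left out, but L-Gast2 stood below L-AM2, which averaged 2647, 3010 and 2706 CPM.

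CDH3, the classical P-cadherin, averaged 126 ± 60.5 CPM in L-Gast2 and 19.4 ± 8.46 CPM in EXMC (log2 fold change 2.66 ± 0.58, adjusted p = 0.0249; 0.136, 0.124 and 0.174 without embryos 1, 2 and 3). The adhesion molecule EPCAM averaged 194 ± 66 and 93.4 ± 19.9 CPM and was not called (adjusted p = 0.144). E-cadherin, CDH1, was low in both, at 5.34 ± 4.2 CPM in L-Gast2 and 9.34 ± 3.92 CPM in EXMC, against 43.5 CPM in L-Gast1 (adjusted p = 0.768).

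Of 18 mesenchymal transition genes tested, 0 were called higher and 4 lower in L-Gast2 (median -1.41; 0 in the higher direction at an unadjusted p under 0.05 and 0 by DESeq2). VIM, the intermediate filament of mesenchyme, stood at 386, 392, 537 and 526 CPM in L-Gast2, against 2385, 1141, 1360 and 1278 CPM in EXMC (log2 fold change -1.69 ± 0.21, adjusted p = 0.000836). In L-Gast1 and postL-EPI it averaged 63.8 and 77.8 CPM, so L-Gast2 stood between those types and EXMC. ZEB2, a repressor of E-cadherin, averaged 75.8 ± 49.6 CPM in L-Gast2 and 593 ± 172 CPM in EXMC (adjusted p = 0.0037; 0.0702 without embryo 4). The actin-binding proteins TAGLN and TPM1 averaged 13.8 ± 13.8 and 185 ± 87.9 CPM in L-Gast2, against 199 ± 76.5 and 1227 ± 334 CPM in EXMC (adjusted p = 0.0118 and 0.00296; TAGLN 0.0612 without embryo 2). The integrin chain ITGB1 averaged 448 ± 180 and 765 ± 234 CPM and was not called (adjusted p = 0.106).

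**Figure D4:**
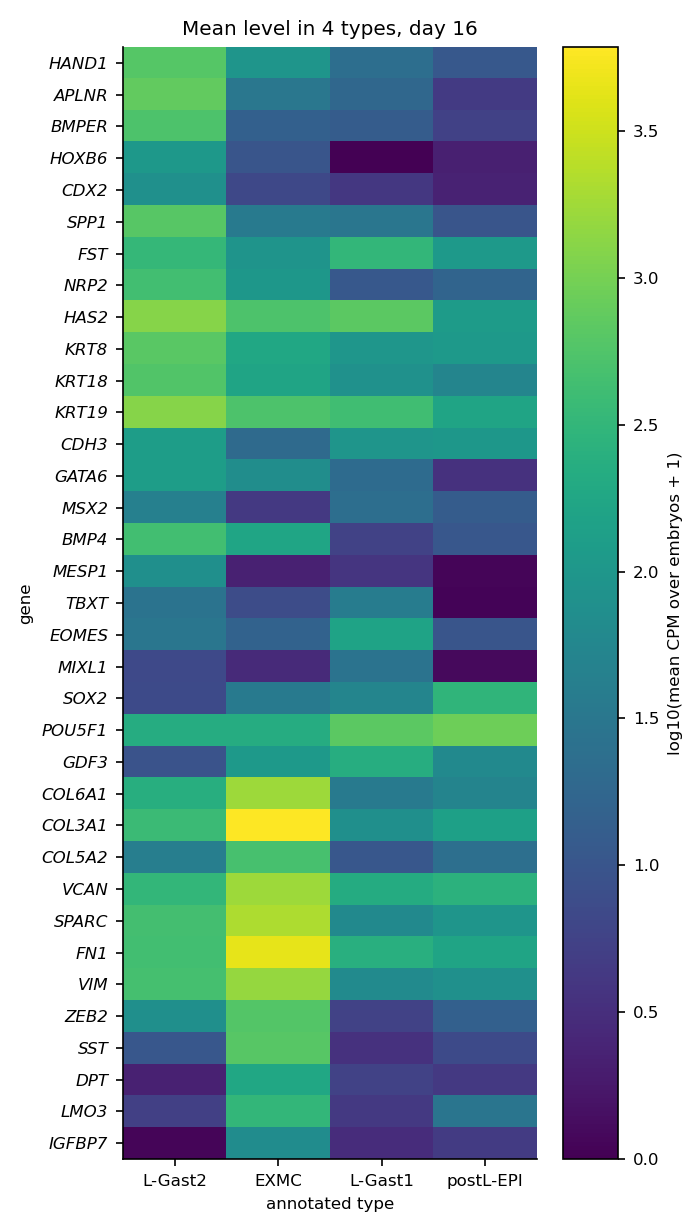
Rows are 35 genes and columns are 4 annotated types of day 16 (L-Gast2, EXMC, L-Gast1 and postL-EPI); colour gives log10 of the mean CPM over embryos plus 1. APLNR and BMPER are bright in L-Gast2 only among these 4 columns, EOMES, POU5F1 and GDF3 are brighter in L-Gast1, and the collagens, FN1 and VIM are brightest in EXMC.

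Few HOX genes passed the filter on low counts. Of 12 tested, HOXB6 was called higher and 0 were called lower, with 5 lower at an unadjusted p under 0.05 and 4 called by DESeq2 (median -2.34). The 5′ genes HOXA9, HOXA10 and HOXA13 averaged 11.3 ± 19.9, 7.25 ± 9.71 and 16.8 ± 18.8 CPM in L-Gast2, against 46.4 ± 26.1, 81.9 ± 37.1 and 59 ± 28 CPM in EXMC (adjusted p = 0.133, 0.0676 and 0.275). HOXB2 and HOXB3, at the 3′ end of their cluster and chosen after their values were seen, did not pass the filter. HOXB2 stood at 94.5, 41.8, 105 and 1.58 CPM in L-Gast2 and at 0.535, 0.55, 0.841 and 3.23 CPM in EXMC, and HOXB3 at 34.2, 19, 57.3 and 4.74 CPM in L-Gast2 and at 0, 0, 0.841 and 2.42 CPM in EXMC. With no filter both were called higher (log2 fold change 5.27 for each, adjusted p = 0.000734 and 0.0242). In embryo 4, L-Gast2 had little of either, while HOXA9 in the same sum stood at 41 CPM, with 86.2% of all L-Gast2 counts of HOXA9 in 1 cell. Reads of HOX genes may be split between related copies.

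Of 19 pluripotency genes tested, GDF3 alone was called, as lower in L-Gast2 (median -0.79). POU5F1 stood at 101, 98.9, 186 and 496 CPM in L-Gast2 and at 134, 279, 256 and 218 CPM in EXMC, against 905 CPM on average in postL-EPI; its log2 fold change of -0.30 ± 0.39 was not called (adjusted p = 0.812) and turned in 4 alternatives. SOX2 averaged 5.98 ± 4.2 CPM in L-Gast2 and 34.5 ± 37.6 CPM in EXMC, against 295 CPM in postL-EPI (adjusted p = 0.328). The RNA-binding proteins LIN28A and LIN28B went opposite ways without a call: LIN28A averaged 278 ± 41.4 and 164 ± 21.5 CPM in L-Gast2 and EXMC (adjusted p = 0.185), and LIN28B 215 ± 102 and 408 ± 28.8 CPM (adjusted p = 0.0939).

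Of 13 imprinted genes tested, 0 were called higher and 3 lower in L-Gast2 (median -1.45; 0 higher at an unadjusted p under 0.05 and 0 by DESeq2). DLK1, a paternally expressed NOTCH-related ligand, stood at 4.02, 11.4, 2.12 and 22.1 CPM in L-Gast2 and at 167, 169, 51.3 and 101 CPM in EXMC (log2 fold change -3.87 ± 0.67, adjusted p = 0.00587; 0.0638 without embryo 1). MEST averaged 256 ± 125 CPM in L-Gast2 and 728 ± 364 CPM in EXMC (adjusted p = 0.0211; 0.0872 and 0.0817 without embryos 1 and 2). CDKN1C, a maternally expressed inhibitor of the cell cycle, averaged 65.9 ± 43.2 and 283 ± 72.7 CPM (adjusted p = 0.0492; 0.151, 0.194 and 0.0592 without embryos 1, 3 and 4). Outside the imprinted list, IGFBP3, the main carrier of IGFs, averaged 534 ± 696 CPM in L-Gast2 and 4953 ± 1256 CPM in EXMC without a call (adjusted p = 0.175).

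Calls among proliferation and hypoxia genes stand beside 2.77% called over all genes tested. Of 26 S phase and mitosis genes tested, 0 were called by edgeR (median 0.41), with 6 at an unadjusted p under 0.05, all higher, and 1 called by DESeq2. Limma on means over cells called 10 of the 26 higher and 0 lower, and 6 hypoxia and glycolysis genes higher and 3 lower. Over all genes tested limma called 758 higher and 466 lower. CENPF, a mitotic kinetochore protein, averaged 922 ± 453 CPM in L-Gast2 and 487 ± 167 CPM in EXMC (adjusted p = 0.0939). Of 22 hypoxia and glycolysis genes, P4HA1, a collagen prolyl hydroxylase, was called lower at the edge of the threshold (312 ± 68.6 and 599 ± 187 CPM in L-Gast2 and EXMC, adjusted p = 0.05) and lost the call without any 1 embryo (0.0641 to 0.261). BNIP3, a hypoxia-induced mitophagy receptor, averaged 2422 ± 1354 and 1604 ± 688 CPM (adjusted p = 0.0593), and embryo 4 was lowest in both types.

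Markers of other cell types were counted and summed in both types. Of 18 visceral and yolk sac endoderm markers, 5 were tested and TTR, a transport protein of the yolk sac, was called lower in L-Gast2 (4.02, 1.9, 1.59 and 56.8 CPM, against 10.7, 185, 118 and 305 CPM in EXMC; adjusted p = 0.0209, and 0.104 and 0.0956 without embryos 2 and 3). TTR was also not called with no replicate block or on means over cells, and its log2 fold change ran from -5.15 to -0.43 over the alternatives. In EXMC, 32.1% of its counts came from 1 cell of embryo 2. Yolk sac cells annotated VE/YE averaged 2552 CPM of TTR. The summed endoderm markers ran from 247 to 936 CPM in L-Gast2 and from 311 to 2873 CPM in EXMC, and 7 of the 18 were at 0 in every L-Gast2 sum, against 1 in every EXMC sum. APOA1 followed TTR by embryo, at 98.6, 70.4, 22.8 and 120 CPM in L-Gast2 and at 90.4, 864, 823 and 1783 CPM in EXMC (adjusted p = 0.364). Whether endoderm RNA contributed to the EXMC sums was not tested. A fit that dropped genes found 8 times or more above both types in another annotated type kept 9791 genes and called 90 higher and 180 lower.

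Endothelial and blood markers summed to 316 to 401 CPM in L-Gast2 and 518 to 714 CPM in EXMC, with 6 of 20 at 0 throughout L-Gast2 and 4 throughout EXMC. Of 7 tested, ETV2, the factor that starts the endothelial and blood programme, was called lower (0, 3.8, 1.06 and 3.16 CPM in L-Gast2, against 18.2, 152, 11.3 and 43.6 CPM in EXMC; adjusted p = 0.0198, and 0.0641 and 0.221 without embryos 1 and 2). In EXMC, 61.9% of its counts came from 1 cell of embryo 2. Of 8 amnion markers tested, CDX2 and HAND1 were called higher in L-Gast2 and 0 lower (median 1.23; 5 above 0 and 3 below; DESeq2 called 3 higher and 1 lower, and 1 in the lower direction had an unadjusted p under 0.05). The summed amnion markers ran the other way without overlap, from 810 to 2967 CPM in L-Gast2 and from 3935 to 6612 CPM in EXMC. IGFBP3, which is on the amnion list, averaged 534 CPM in L-Gast2 and 4953 CPM in EXMC. It alone made up most of the EXMC sums, so the sums do not give the direction of the other amnion markers. GATA3, an amnion and trophoblast factor, averaged 39.5 ± 15.2 CPM in L-Gast2 and 17.7 ± 9.52 CPM in EXMC (adjusted p = 0.471). Of 14 extraembryonic mesenchyme markers, chosen with earlier results of these cells known, HAND1 was called higher and POSTN and VIM lower; 12 did not overlap, against 9.36% of all genes tested (2826 to 6816 CPM summed in L-Gast2 and 22131 to 34370 CPM in EXMC).

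Trophoblast markers summed to 84.5 to 306 CPM in L-Gast2 and 86.2 to 297 CPM in EXMC, and germ cell markers to 38 to 546 and 206 to 377 CPM. Of 6 and 4 tested, 0 were called by edgeR, with 0 and 2 at an unadjusted p under 0.05 and 0 and 2 called by DESeq2. CGA, the hormone subunit of trophoblast, averaged 73.4 ± 88.9 CPM in L-Gast2 and 78.4 ± 66.4 CPM in EXMC (adjusted p = 0.73). Gastrulating cell markers ran from 12.7 to 366 CPM in L-Gast2 and from 17.7 to 91.3 CPM in EXMC, with 0 of 2 tested called (0 at an unadjusted p under 0.05 and 0 by DESeq2). Epiblast markers ran from 304 to 849 CPM in L-Gast2 and from 699 to 1090 CPM in EXMC.

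Single cells showed how general these levels were. HAND1 was detected in 32 of 33 L-Gast2 cells and 61 of 86 EXMC cells. After each cell was thinned to 20000 counts, which left 28 L-Gast2 and 69 EXMC cells, it was found in 96.4% of L-Gast2 cells (95% exact binomial interval 81.7 to 99.9%) and 50.7% of EXMC cells (38.4 to 63%), against 20.2% of postL-EPI cells, whose median depth was 89706 counts. Thinned shares for APLNR were 92.9% in L-Gast2, 15.9% in EXMC and 7.87% in postL-EPI, and for BMPER 89.3%, 21.7% and 4.49%. APLNR and BMPER were found together in 29 of 33 L-Gast2 cells, of which 30 had each. The cells of an embryo are not replicates, so the intervals cover sampling of cells only.

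COL6A1 and COL3A1 were found after thinning in 60.7% and 78.6% of L-Gast2 cells and in all 69 EXMC cells (100%). In postL-EPI, an epithelium, the shares were 37.1% and 64%, with mean levels of 50.7 and 142 CPM. Unthinned, the median L-Gast2 cell had 74.2 CPM of COL6A1 and the median EXMC cell 1333 CPM, and for COL3A1 85 and 6139 CPM. SST was found in 17.9% of L-Gast2 and 59.4% of EXMC cells after thinning, against 11.2% in postL-EPI (unthinned 45.5%, 67.4% and 28.7%), and POSTN in 21.4% and 78.3%, against 14.6% (unthinned 27.3%, 83.7% and 25.7%).

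**Figure D5:**
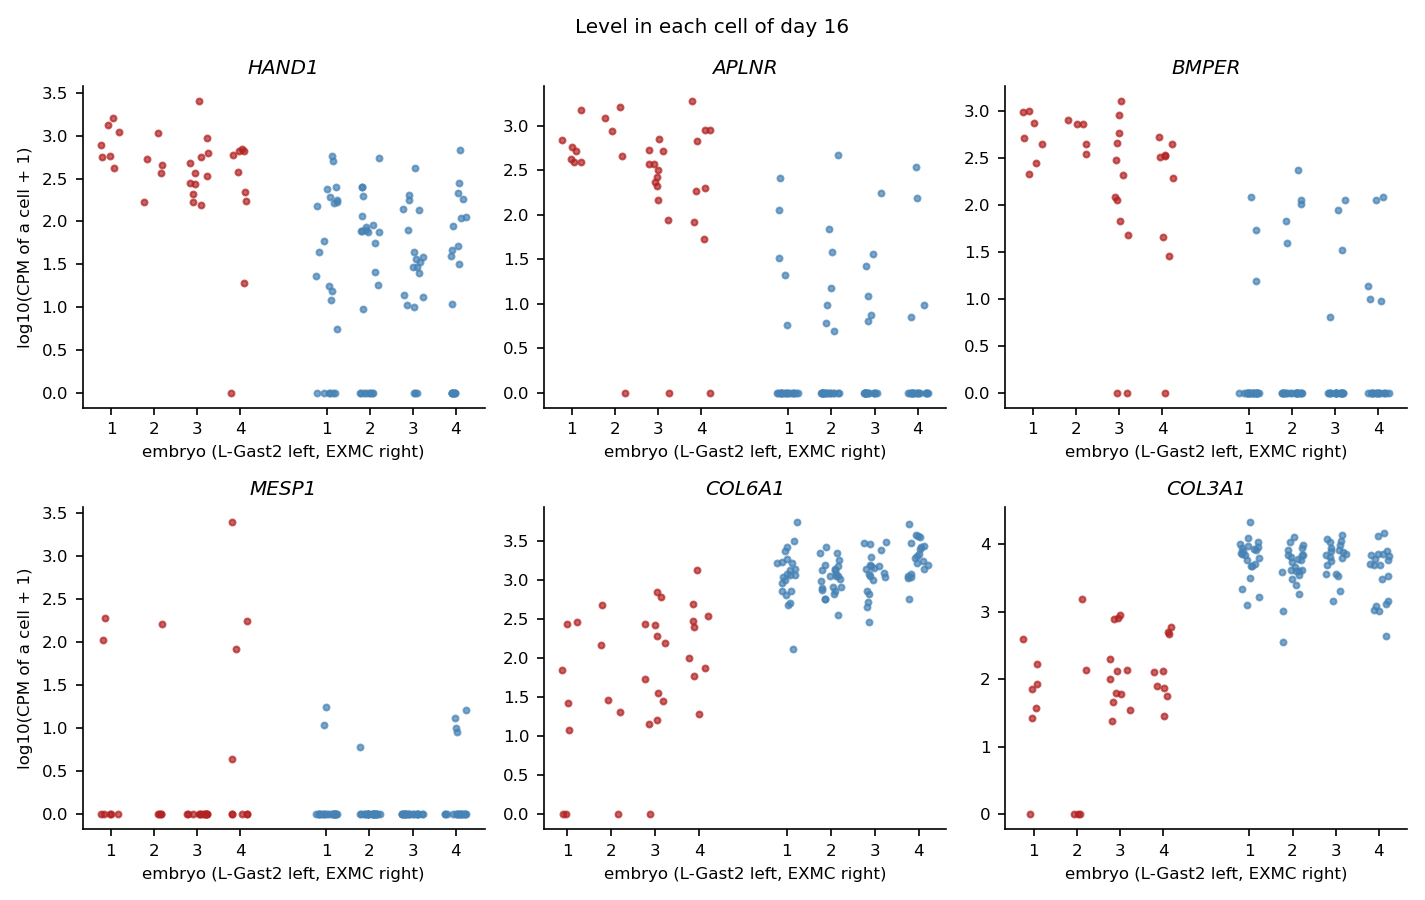
Each point is a cell of day 16, with embryos 1 to 4 of L-Gast2 at the left (red) and of EXMC at the right (blue); the y axis is log10 of the CPM of the cell plus 1. HAND1, APLNR and BMPER are found in most L-Gast2 cells of every embryo, MESP1 in 7 of 33, and COL6A1 and COL3A1 in all 86 EXMC cells at higher levels.

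The L-Gast2 cells also differed among embryos. CDX2 was detected in 5 of 7, 4 of 5, 7 of 12 and 2 of 9 L-Gast2 cells of embryos 1 to 4, and SPP1 in 24 of 33 in all; 14 cells had both. MESP1 was detected in 7 cells, 2 in embryo 1, 1 in embryo 2 and 4 in embryo 4; all 7 had HAND1, 2 had TBXT and 2 had CDX2. After thinning, MESP1 was found in 14.3% of L-Gast2 and 2.9% of EXMC cells. Embryo 4 gave the L-Gast2 sum lowest in CDX2, SPP1 and BMP4 and highest in TBXT, MESP1 and POU5F1; with 1 embryo of this kind the pattern could not be tested. Outside day 16 the annotation L-Gast2 was given to 2 cells, too few to repeat the comparison on another day.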

How the data were processed

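Whole-number counts per gene and cell were deposited by the authors as a table of 30792 genes in 1453 cells of 21 embryos, with a second deposited table that gives the annotation of each cell. Per the submitters' processing notes reads were handled with the aligner STAR; the sources used here do not give a version, a genome build, a counter or a use of molecular identifiers. Per the labels' protocols, RNA was amplified by PCR and read at the 3′ end, so a count measures transcript ends and counting intervals cover counting error only. Through the RefSeq table of assembly T2T-MFA8v1.1, 3273 numbered identifiers were given a symbol, which left 6.99% of all counts without one. No cells had identical values, no further filter on cells and no doublet caller were applied.

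Sums of at least 3 cells per embryo and type were filtered with filterByExpr, scaled by TMM and tested with edgeR 4.0.16 under R 4.3.3 (glmQLFTest after a robust glmQLFit), with embryo as a block because both types come from the same embryo. Adjusted p-values are from this fit unless another is named; limma was version 3.58.1 and DESeq2 1.42.0. The fit was also run on simulated sums drawn at its own dispersions, and the outcome is not given here. The simulation did not model single cells, so it does not cover sums that rest largely on 1 cell. CPM values come from all annotated types of day 16 scaled together, and the sign ± gives a standard error beside a log2 fold change and an SD over embryos beside a CPM. The standard error was derived from the F statistic of the quasi-likelihood test, as the absolute log2 fold change over the square root of F. Genes with a like ratio of change to standard error can therefore differ in adjusted p. Cells were thinned to 20000 counts for shares. The embryos are the replicates.

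The members, gene lists and tests were chosen with earlier results of these data known. Named genes are HAND1, MESP1 and COL6A1, the 12 largest called differences in each direction among genes with a symbol, at least 20 CPM in the higher type and 1 direction in every embryo, and from each list up to 4 called genes per direction and up to 3 of the highest uncalled genes. GATA6, GATA4, MSX1, MSX2, HAND2, TBX20, TBXT, MIXL1, TBX6, SNAI2, PDGFRA, NID1, NID2, TIMP3, CDH1, HOXB2, HOXB3 and SOX2 were added after their values were seen. A gene that the rule also names is not reported here.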

Additional observations from a re-analysis of the deposited data

Results flagged for a closer look

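Of 212 groups of 4 embryo sums of the named genes, 24 held 1 embryo that stood apart from the other 3 by more than the 95% limit for a single outlying value. Chance passes that limit in about 1 in 20 groups of 4 values that follow a normal distribution. Where 3 embryos stand at 0, any count in the remaining embryo passes it. This holds in L-Gast2 for C7, CXXC4, ERP27, IFI16, IGFBP7, MRVI1 and TBX6, so the 24 cannot be read against that rate. In L-Gast2, embryo 2 was the highest for ALAS2 (546 CPM, next 66.3), LUM (1038, next 195), IGFBP3 (1573, next 285), CGA (205, next 45.8), LMO3 (15.2, next 1.58) and CXXC4 (3.8, next 0). Embryo 4 of L-Gast2 was the highest for TBXT (106 CPM, next 2.01), TTR (56.8, next 4.02), HOXA9 (41, next 3.8), IFI16 (3.16, next 0), C7 (1.58, next 0) and TBX6 (1.58, next 0). Embryo 3 of L-Gast2 was the highest for ERP27 (2.65 CPM), IGFBP7 (0.53) and MRVI1 (0.53), each at 0 in the others, and embryo 1 for MSX1 (20.1 CPM, next 17.5). In EXMC, embryo 4 was the highest for IGF2 (3311 CPM, next 1423), P4HA1 (876, next 535), TBX2 (136, next 37.4) and HOXB2 (3.23, next 0.841), embryo 2 for CFC1 (53.4, next 16.2) and CD52 (19.3, next 1.07), embryo 3 for KRT19 (685, next 507) and embryo 1 for TUBGCP3 (9.63, next 1.62).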

How the results depend on the processing

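In none of the alternatives was the direction of a called named gene turned. In place of 275 called genes there were 573 with no filter on low counts (179 higher, 394 lower), 158 with all types of the day in the fit (40 and 118), 744 by DESeq2 (221 and 523) and 1224 by limma on means over cells (758 and 466); without the deepest L-Gast2 cell of embryo 2, 279 were lower, and with no replicate block, 39 were higher. Leaving out 1 embryo gave 113 to 299 called genes, 25 to 115 higher and 88 to 184 lower. Of the genes not called, EOMES turned without replicate 1 (-0.55) and replicate 4 (-0.65; -0.65 to 1.44 over the embryos left out), CDH1 with L-Gast1 and L-Gast2 together (0.55), and POU5F1 with no replicate block (0.00), with L-Gast1 and L-Gast2 together (0.59), without replicate 2 (0.12; -0.79 to 0.12 over the embryos left out) and on means over cells (1.02). The cause of these changes was not tested. The embryo is the pairing here, as both types come from it. Of 60 called named genes, 47 stayed called with no replicate block and 22 in all 4 fits with 1 embryo left out. With all types of the day in the edgeR fit, 29 of the 60 stayed called, and 116 of the 275 main calls were kept. VIM (adjusted p = 0.148), VCAN (0.087) and KRT19 (0.0551) were among the named genes that lost their calls there. Of 432 counts per list, 141 moved by over 1.5 times. Requiring 5 cells per sum changed nothing, since every sum held 5 or more. The planned comparison at day 17, and its difference from day 16, were not run, because 1 L-Gast2 cell was found there. With 5 to 12 L-Gast2 cells per embryo, and 1 cell giving up to 66.1% of a sum, differences of genes at a few CPM could not be detected.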
